A study of Mus musculus with 9 samples.

Results

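The 10 neutrophil granule genes described here are Mpo, Elane, Prtn3, Ctsg, S100a8, S100a9, Ltf, Ngp, Camp and Lcn2. They were chosen by name, and each was found through its Ensembl identifier in a table of 13708 genes. All 10 had a row and all 10 passed the filter on low values, a minimum of 10 normalized counts in 4 or more samples. Expression was measured by bulk RNA-seq in CD45+ F4/80hi CD11blow macrophages sorted from the livers of mouse embryos at E15.5. One group of 5 samples was Mrc1Cre Xpr1fl/fl (called Cre+ below) and the other group of 4 samples was Xpr1fl/fl without Cre (called controls). Each library was made from 45 ng of total RNA. Both groups carry loxP sites on both Xpr1 alleles, and Xpr1 encodes a phosphate exporter of the cell membrane. The Cre of the first group is knocked into the locus of Mrc1, the gene of the mannose receptor CD206, so recombination is driven in cells that use that locus, macrophages and also endothelial cells of the liver sinusoids among them. Whether the samples of a group came from separate embryos is not stated for each sample, so the p-values measure the spread between these samples.

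The column names of the table begin with 1 of 3 dates, and what the dates stand for is not stated in the sources used here. Cre+ sample 5 and controls 1 to 3 carry the earliest date, control 4 the middle one and Cre+ samples 1 to 4 the latest. Genotype and date therefore overlap almost completely, and the main results below are also given from a fit with date in the model. In that fit the genotype difference rests on Cre+ sample 5 against controls 1 to 3. Its spread comes from controls 1 to 3 and from Cre+ samples 1 to 4, which carry another date. Its p-values therefore hold no measure of the spread among Cre+ samples of the earliest date. Levels are normalized counts, which the authors obtained with DESeq2. Their totals lay between 26942921 and 28309443 per sample and are set by that normalization, so the sequencing depth is unknown. Fold changes are limma estimates on log2(normalized count + 1), Cre+ against control, and all 13594 genes tested entered the Benjamini-Hochberg adjustment of the p-values. Xpr1 lay between 1073.7 and 1285.3 normalized counts in the Cre+ samples and between 1780.9 and 2239.2 in the controls. Adgre1, which encodes F4/80, lay between 42249.8 and 52418.8 in all 9 samples (log2 fold change 0.02 ± 0.07, SE), so the sorting marker was present at like levels in both groups.

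Neutrophils build their granules in order as they mature. Promyelocytes make the azurophil (primary) granules and fill them with myeloperoxidase and serine proteases, and the genes of these proteins are then switched off. Myelocytes and metamyelocytes make the specific (secondary) granules with lactoferrin, cathelicidin and lipocalin, and later stages add gelatinase granules and large amounts of the cytosolic S100A8/S100A9 complex. RNA of the early genes therefore marks progenitors and promyelocytes, and RNA of the late genes marks more mature cells of the same lineage. The fetal liver is the main site of blood formation at this age and holds such cells beside its macrophages. Monocytes and activated macrophages can also make S100a8, S100a9 and Lcn2. In bulk samples fewer cells of a type and less RNA per cell cannot be told apart.

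The early genes were lower in every Cre+ sample than in every control. Mpo encodes myeloperoxidase, which makes hypochlorous acid. It lies on the plus strand of chromosome 11 (GRCm39, 87684407 to 87695239) and has 14 exons. In Cre+ samples 1 to 5 it stood at 2193.7, 1639.6, 2162.6, 1982.7 and 1524.5 normalized counts, and in controls 1 to 4 at 5253.8, 7719.5, 9596.3 and 5707.1. The highest Cre+ sample was thus well below the lowest control, and the 5 Cre+ samples lay close together. The log2 fold change was −1.87 (SE 0.17, 95% interval −2.24 to −1.49, limma adjusted p = 2.4e-05), which is 3.65-fold lower.

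Elane, the gene of neutrophil elastase, and Prtn3, the gene of proteinase 3, lie 3072 bp apart on the plus strand of chromosome 10 (Elane 79722081 to 79724051, Prtn3 79710310 to 79719008). Both encode serine proteases of the azurophil granule. Elane stood at 193.1, 108.7, 201.4, 169.0 and 158.5 normalized counts in Cre+ samples 1 to 5 and at 586.7, 846.7, 1081.0 and 616.6 in controls 1 to 4. Prtn3 stood at 316.7, 215.6, 298.4, 269.7 and 286.0 in the Cre+ samples and at 997.9, 1328.4, 1657.4 and 895.1 in the controls. For neither gene did the groups overlap, and control 3 was the highest sample for both. Elane fell by 2.22 on the log2 scale (SE 0.21, 95% interval −2.68 to −1.75, limma adjusted p = 2.82e-05), or 4.65-fold. Prtn3 was 4.30-fold lower, with a log2 fold change of −2.10 (SE 0.17, 95% interval −2.48 to −1.72, limma adjusted p = 1.26e-05). The annotated span of Prtn3 overlaps that of Plppr3, on the opposite strand, by 197 bp, and the setting for strand in the counting is not given in the sources used here.

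Ctsg, which encodes cathepsin G, the third protease of this group, lies on the minus strand of chromosome 14 (56337338 to 56340031) with Mcpt8, a basophil protease gene, the nearest gene of the table at 14607 bp. Its level was 109.8, 87.2, 84.0, 92.3 and 78.6 normalized counts in Cre+ samples 1 to 5 and 276.7, 517.8, 603.3 and 408.3 in controls 1 to 4. As for the other early genes, no Cre+ sample reached any control. Ctsg had the largest difference of the 4, a log2 fold change of −2.26 (SE 0.20, 95% interval −2.70 to −1.81, limma adjusted p = 2.16e-05), although the intervals of all 4 overlap. Over the 4 early genes the highest control was 1.83 to 2.18 times the lowest, and the highest Cre+ sample 1.40 to 1.85 times the lowest. All 4 of 4 were called lower, where 21.6% of all genes tested were called lower, and in all 4 the groups did not overlap, as in 17.5% of all genes tested with the Cre+ samples below. The two-sided exact permutation test gave p = 0.0159 for each of them, the smallest value that 126 splits of 5 against 4 samples allow in it.

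**Figure D1:**
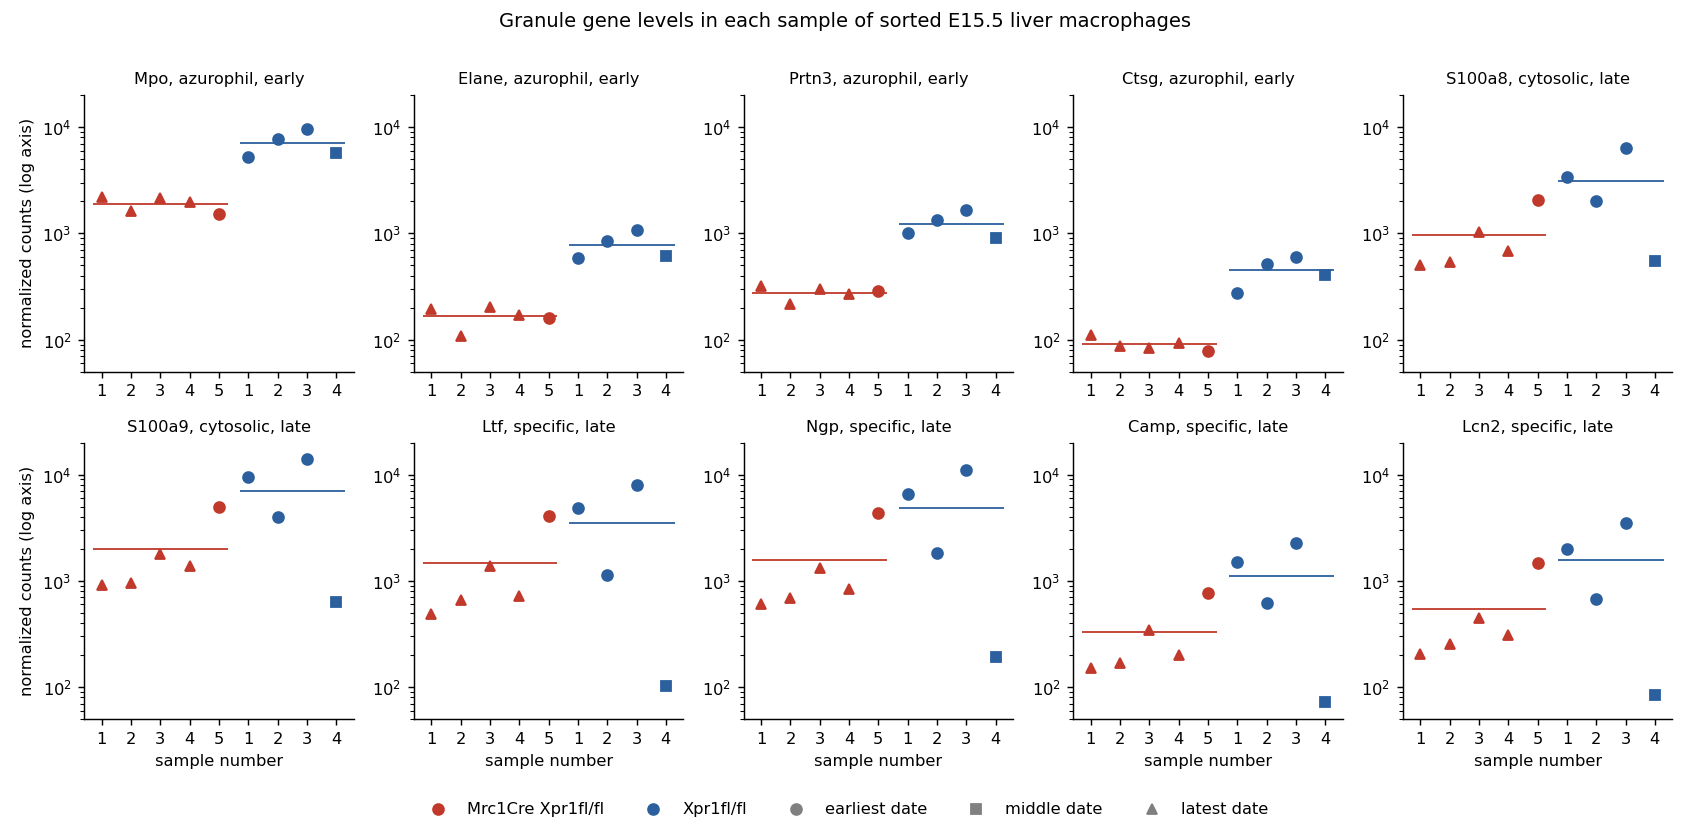
Each panel shows 1 granule gene, with normalized counts on a log axis for Cre+ samples 1 to 5 (red) and controls 1 to 4 (blue); the symbol gives the date in the column name and the line the group mean. The early genes separate by genotype, whereas in the late genes control 4 lies near or at the bottom and Cre+ sample 5 near controls 1 to 3.

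The letters before the starts of the early genes are shown because these genes move together across the samples, while the late genes, shown further on, move together in another order. The sequences are the 150 bases before the start of the canonical transcript, read from GRCm39 and written 5′ to 3′ on the strand of the gene. Capitals mark GAGGAA, a core recognised by PU.1 and other ETS factors of myeloid cells, on either strand, and TTNNGNAA, a shortened C/EBP motif, on either strand. Mpo is chr11:87684257-87684406 (plus strand), Elane chr10:79721931-79722080 (plus) and Prtn3 chr10:79715298-79715447 (plus), where the canonical Prtn3 transcript starts inside the annotated gene.
Mpo: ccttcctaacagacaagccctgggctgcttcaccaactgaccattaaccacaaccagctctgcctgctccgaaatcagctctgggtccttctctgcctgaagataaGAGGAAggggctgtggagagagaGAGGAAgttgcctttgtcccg
Elane: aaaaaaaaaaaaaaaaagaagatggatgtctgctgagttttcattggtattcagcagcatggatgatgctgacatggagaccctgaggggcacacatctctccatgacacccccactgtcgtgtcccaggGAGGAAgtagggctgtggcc
Prtn3: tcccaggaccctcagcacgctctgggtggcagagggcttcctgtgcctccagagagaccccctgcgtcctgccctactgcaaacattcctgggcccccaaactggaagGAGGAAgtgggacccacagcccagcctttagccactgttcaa
GAGGAA was found in 3 of the 4 early genes, 2 times in Mpo (at −44 and −21, the places of the first printed letter of a match, where −1 is the base just before the start), at −20 in Elane and at −42 in Prtn3, and not in Ctsg. Among 13045 promoters of the same length, 14.4% held it. TTNNGNAA was in none of the 4 early promoters, and 19.0% of all promoters held it. A match of this kind is a description of letters and not of a bound site.

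With date in the model, all 4 early genes were again called lower, where the fit called 4.54% of all genes lower. The log2 fold changes were −2.26 for Mpo (95% interval −2.86 to −1.66, limma adjusted p = 0.00216), −2.35 for Elane (limma adjusted p = 0.00616), −2.18 for Prtn3 (limma adjusted p = 0.00228) and −2.48 for Ctsg (limma adjusted p = 0.00524). In this comparison Cre+ sample 5 held 0.203 times the mean of controls 1 to 3 for Mpo, 0.189 times for Elane, 0.215 times for Prtn3 and 0.169 times for Ctsg. The early genes were thus about as low in the Cre+ sample of the earliest date as in those of the latest. Leaving out any 1 sample left all 4 called lower, with log2 fold changes of −2.34 to −2.05 for Elane and −2.47 to −2.10 for Ctsg.

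The late genes did not separate by genotype. S100a8 and S100a9 encode calgranulins A and B, which pair into calprotectin, a calcium-binding protein that withholds zinc and manganese from microbes. They are neighbours on chromosome 3, 21802 bp apart (S100a8 on the plus strand from 90567118 to 90578128, S100a9 on the minus strand from 90599931 to 90603071). S100a8 stood at 507.6, 538.4, 1030.9, 684.1 and 2073.5 normalized counts in Cre+ samples 1 to 5 and at 3407.7, 2031.6, 6381.4 and 548.0 in controls 1 to 4. S100a9 stood at 907.5, 953.2, 1786.8, 1374.3 and 4994.6 in the Cre+ samples and at 9513.5, 4000.2, 14013.4 and 636.9 in the controls. Control 4 lay among the low Cre+ samples for S100a8 and below all of them for S100a9, while Cre+ sample 5 lay above control 2 for both. The log2 fold change of S100a8 was −1.41 (SE 0.62, 95% interval −2.77 to −0.06, limma adjusted p = 0.0848). That of S100a9 was −1.42 (SE 0.79, 95% interval −3.15 to 0.31, limma adjusted p = 0.169).

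Ltf, Ngp, Camp and Lcn2 encode proteins of the specific granule: lactoferrin, which binds iron, neutrophilic granule protein, a relative of the cystatins, the cathelicidin CRAMP, an antimicrobial peptide, and lipocalin 2, which binds bacterial siderophores. Camp (minus strand, 109676442 to 109678685), Ngp (plus strand, 110248815 to 110252086) and Ltf (plus strand, 110848339 to 110871835) lie on chromosome 9, with 570129 bp between Camp and Ngp and 596252 bp between Ngp and Ltf. Lcn2 lies on the minus strand of chromosome 2 (32274645 to 32278264). Ltf stood at 483.5, 660.8, 1390.3, 717.8 and 4038.7 normalized counts in Cre+ samples 1 to 5 and at 4876.5, 1136.1, 8013.3 and 101.9 in controls 1 to 4. Ngp stood at 611.2, 691.1, 1325.4, 845.0 and 4307.0 in the Cre+ samples and at 6568.3, 1836.7, 10997.6 and 193.0 in the controls. The controls therefore held both the highest and the lowest sample of each gene, and the highest control was 78.6 times the lowest for Ltf and 57.0 times for Ngp. Camp stood at 152.0, 170.7, 348.7, 201.3 and 765.0 in the Cre+ samples and at 1494.5, 613.6, 2287.8 and 72.3 in the controls. Lcn2 stood at 205.5, 253.2, 450.7, 309.3 and 1475.5 in the Cre+ samples and at 1998.7, 678.9, 3489.3 and 84.0 in the controls. The order of the samples was the same for S100a9, Ngp, Camp and Lcn2: control 3, control 1, then Cre+ sample 5 and control 2, then Cre+ samples 3, 4, 2 and 1, and control 4 last.

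No late gene was called in either direction, where 21.6% of all genes tested were called lower and 21.5% higher. The log2 fold changes of the specific granule genes were −0.47 for Ltf (SE 1.09, 95% interval −2.85 to 1.90, limma adjusted p = 0.755), −0.96 for Ngp (SE 1.00, limma adjusted p = 0.466), −1.22 for Camp (SE 0.85, limma adjusted p = 0.272) and −0.98 for Lcn2 (SE 0.93, limma adjusted p = 0.423). These intervals hold a fall as large as that of the early genes as well as no change, so the difference was not resolved by these samples. At an unadjusted p under 0.05, S100a8 alone of the 6 passed (limma unadjusted p = 0.0420). The exact permutation p-values were 0.143 for S100a8, 0.206 for S100a9, 0.730 for Ltf, 0.492 for Ngp, 0.302 for Camp and 0.460 for Lcn2 (two-sided).

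The promoters of 4 late genes, read and marked in the same way, are given for comparison with those of Mpo, Elane and Prtn3. They are chr3:90603072-90603221 (minus strand) for S100a9, chr9:110848189-110848338 (plus) for Ltf, chr9:110248665-110248814 (plus) for Ngp and chr9:109678686-109678835 (minus) for Camp.
S100a9: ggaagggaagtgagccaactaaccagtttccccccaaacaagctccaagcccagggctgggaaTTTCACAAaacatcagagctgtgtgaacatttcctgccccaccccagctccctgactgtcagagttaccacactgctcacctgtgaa
Ltf: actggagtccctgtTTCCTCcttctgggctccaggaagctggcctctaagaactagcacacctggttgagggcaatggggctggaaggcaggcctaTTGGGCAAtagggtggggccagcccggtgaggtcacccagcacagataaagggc
Ngp: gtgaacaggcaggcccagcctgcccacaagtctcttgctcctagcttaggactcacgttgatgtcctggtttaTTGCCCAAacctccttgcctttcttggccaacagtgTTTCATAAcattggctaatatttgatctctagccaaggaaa
Camp: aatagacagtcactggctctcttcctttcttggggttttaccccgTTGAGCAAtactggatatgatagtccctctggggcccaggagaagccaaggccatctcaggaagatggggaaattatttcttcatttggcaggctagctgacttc
TTNNGNAA was found in 5 of the 6 late genes (S100a8 at −24, S100a9 at −87, Ltf at −54, Ngp at −77 and −41, Camp at −105, and not in Lcn2), against 0 of the 4 early genes and 19.0% of all promoters. GAGGAA was in 2 of the 6, S100a8 and Ltf. As for Prtn3, the canonical transcripts of S100a8 and Lcn2 start inside the annotated gene, so their results hold for that start. Of other motifs searched on both strands, the RUNX letters TGNGGT were in 5 of the 10 granule genes (24.3% of all promoters), the MYB letters AACNGC in 1 (19.8%), AGATAA, which factors of the GATA family bind, in 2 (3.68%) and the TATA box, searched as TATAAA, in 0 (3.92%). In no promoter shown do the capitals of the PU.1 and C/EBP motifs overlap. The 10 promoters held 48.0% to 62.0% G and C, where the median of all promoters was 59.3%.

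The spread between samples of 1 genotype was wider for the late genes than for the early ones. The SD of the log2 level in the controls was 1.50 for S100a8, 1.98 for S100a9, 2.82 for Ltf, 2.60 for Ngp, 2.21 for Camp and 2.37 for Lcn2, against 0.40 to 0.49 for the early genes and a median of 0.15 over all genes tested. Ltf had a wider spread among the controls than 99.8% of the genes tested, and S100a8, the least variable of the 6, than 99.1%. The early genes stood at 85.0% (Mpo) to 89.2% (Ctsg) of the genes in that order. Among the Cre+ samples the spread of the late genes was smaller, with an SD of 0.84 for S100a8 to 1.22 for Ltf, and those of the early genes lay between 0.18 and 0.35. The groups differ in their dates as well as in genotype, so these spreads do not compare the genotypes alone.

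In the late genes control 4 and Cre+ sample 5 lay apart from the other samples of their genotype. In control 4 the level was 0.139 times the mean of controls 1 to 3 for S100a8, 0.0694 times for S100a9, 0.0493 times for Camp, 0.0409 times for Lcn2, 0.0298 times for Ngp and 0.0218 times for Ltf. It was the lowest of all 9 samples for 5 of the 6 late genes (for S100a8 it was the third lowest), where 9.72% of all genes tested had control 4 lowest. The early genes in control 4 were at 0.674 times (Prtn3) to 0.876 times (Ctsg) the mean of the other controls, above every Cre+ sample. Cre+ sample 5 held 3.00 times (S100a8) to 4.97 times (Ltf) the mean of Cre+ samples 1 to 4 for the late genes, and 0.764 times (Mpo) to 1.04 times (Prtn3) for the early genes. It was the highest of the Cre+ samples for all 6 late genes and no early gene, where 26.5% of all genes tested had it highest. For each of the 6 late genes it fell between the lowest and the highest of controls 1 to 3, with which it shares the date, and for each of the 4 early genes it fell below all 3.

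Late genes were therefore highest in the 4 samples of the earliest date, of either genotype, with 1 exception, Ltf, for which Cre+ sample 3 stood above control 2. With date in the model, no late gene was called, where 4.54% of all genes tested were called lower and 4.24% higher. The log2 fold changes were then −0.77 for S100a8 (95% interval −1.94 to 0.40, limma adjusted p = 0.393), −0.70 for S100a9 (limma adjusted p = 0.478), 0.19 for Ltf (95% interval −1.74 to 2.12, limma adjusted p = 0.914), −0.24 for Ngp (limma adjusted p = 0.870), −0.74 for Camp (limma adjusted p = 0.489) and −0.19 for Lcn2 (limma adjusted p = 0.892). That of Ltf changed its sign. Without control 4, the only sample of the middle date, 5 late genes were called lower, where that fit called 19.6% of all genes lower. The log2 fold changes were −2.08 for S100a8 (limma adjusted p = 0.00554), −2.34 for S100a9 (limma adjusted p = 0.00678), −2.14 for Ngp (limma adjusted p = 0.0265), −2.25 for Camp (limma adjusted p = 0.00785) and −2.05 for Lcn2 (limma adjusted p = 0.0260). Ltf stayed outside (log2 fold change −1.75, limma adjusted p = 0.0757). Without Cre+ sample 5, S100a8 was called (log2 fold change −1.74, limma adjusted p = 0.0341) and the other late genes were not, in a fit that called 22.4% of all genes lower. Date and genotype cannot be told apart for the late genes beyond these values.

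**Figure D2:**
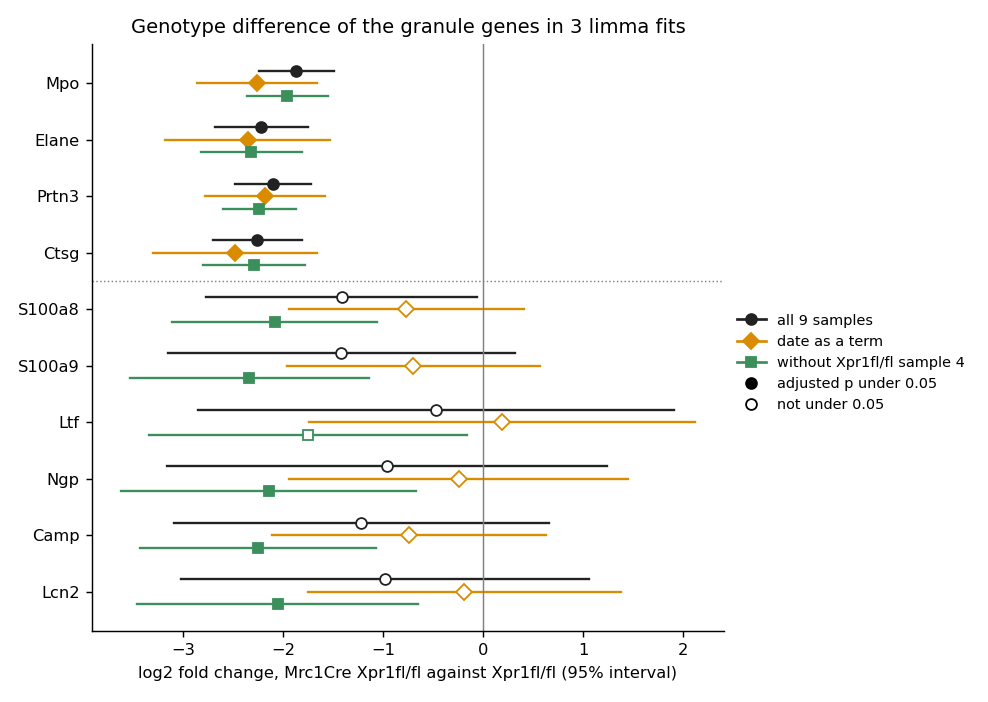
Log2 fold changes of the 10 genes, Cre+ against control, with their 95% intervals in the fit of all 9 samples, with date in the model and without control 4; filled symbols have an adjusted p under 0.05. The early genes above the dotted line lie between −2.48 and −1.87 in all 3 fits, whereas the late genes below it move between −2.34 and 0.19.

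Early and late genes were also compared within each sample. The mean log2 level of Mpo and Elane minus that of the 6 late genes was 0.69, −0.14, −0.45, 0.02 and −2.30 in Cre+ samples 1 to 5 and −1.12, 0.88, −0.97 and 3.32 in controls 1 to 4. The group means were −0.43 ± 1.12 (SD, n = 5) and 0.53 ± 2.07 (SD, n = 4), a difference of −0.96 that is smaller than the spread within either group. It rested on single samples, being −0.03 without control 4, −0.50 without Cre+ sample 5, −1.51 without control 1, −1.46 without control 3 and −1.90 with date in the model. With all 4 early genes in the place of Mpo and Elane the difference was −1.03. Summed, the late genes held 1.02, 1.59, 2.31, 1.64 and 8.62 times the counts of the 4 early genes in the Cre+ samples and 3.92, 0.989, 3.49 and 0.215 times in the controls. Control 4 was thus the sample with the most early relative to late RNA and Cre+ sample 5 the one with the least.

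**Figure D3:**
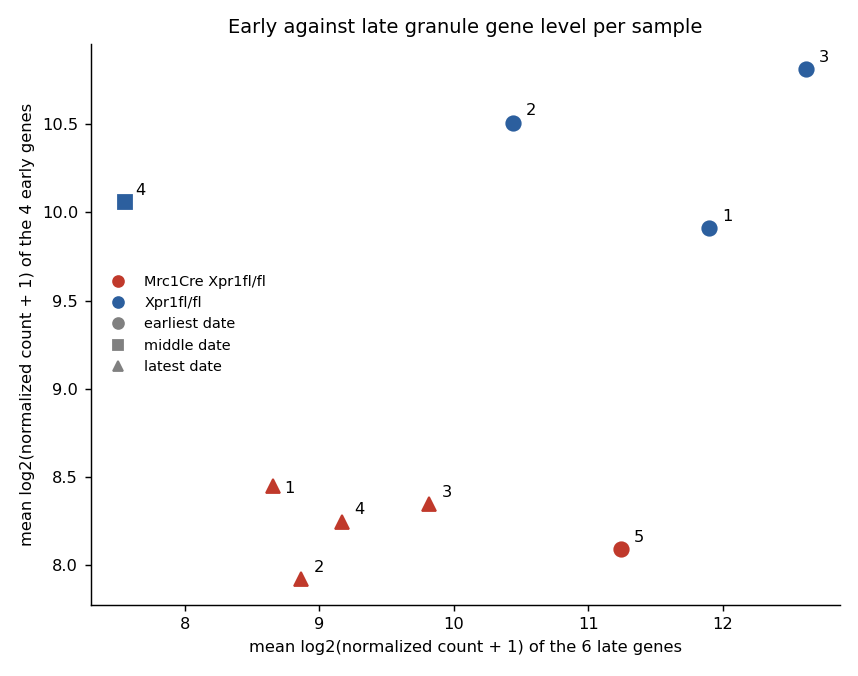
Mean log2(normalized count + 1) of the 4 early genes against that of the 6 late genes in each of the 9 samples, with the sample number beside each point, the genotype as colour and the date as symbol. The genotypes separate along the early axis, with Cre+ means of 7.92 to 8.45 and control means of 9.91 to 10.8, and overlap along the late axis, where control 4 lies farthest left at 7.55.

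Across the 9 samples, levels within a set went together. On the log2 scale Pearson r lay between 0.975 and 0.995 for the 6 pairs of early genes, between 0.879 and 0.999 for the 15 pairs of late genes and between 0.101 and 0.674 for the 24 pairs of an early and a late gene. After each genotype was centred on its mean, the ranges were 0.675 to 0.940, 0.984 to 0.999 and −0.09 to 0.62. The points share their libraries and their dates, so these values describe the samples. The late genes were thus high and low in the same samples, though by different amounts: the highest control was 78.6 times the lowest for Ltf and 11.6 times for S100a8.

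The non-member genes whose pattern over the 9 samples was most like the mean of Mpo and Elane, of 11390 genes ranked by Pearson r, were Depdc1b (r = 0.992), Myb (0.992), Cd63 (0.991), Mxi1 (0.986) and Myh10 (0.984). Myb encodes a transcription factor of blood progenitors, and Cd63 a tetraspanin of lysosomes and azurophil granules. Myb stood at 240.3 to 370.5 normalized counts in the Cre+ samples and at 707.7 to 1121.3 in the controls (log2 fold change −1.55). Genes chosen for their likeness to Mpo and Elane share the difference between the genotypes, so their folds are a description, those of Cd63 included. For the late genes they were Stfa3 (r = 0.998), Olfm4 (0.997), Stfa2l1 (0.997), Cstdc4 (0.993) and Itgb2l (0.993). Olfm4 encodes olfactomedin 4 of the specific granule, and the others apart from Itgb2l, an integrin subunit gene, are stefins or stefin-like genes of the cystatin family. Olfm4 stood at 275.1, 346.7, 633.2, 433.3 and 1651.9 in Cre+ samples 1 to 5 and at 2624.6, 1195.6, 4343.6 and 157.2 in controls 1 to 4. The stefin genes are near-identical copies, and how their reads were divided among them is uncertain.

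Per kilobase of the canonical transcript, S100a9 and S100a8 were the most abundant of the granule genes by their mean in the controls. In the controls the mean per kilobase was 12309 normalized counts for S100a9, 6285 for S100a8, 3989 for Ngp, 2571 for Mpo, 1708 for Lcn2, 1464 for Camp, 1278 for Ltf, 1189.9 for Prtn3, 794 for Elane and 451 for Ctsg. For comparison it was 13709 for Adgre1 and 12746 for Csf1r, the gene of the receptor for macrophage colony-stimulating factor. In control 3 S100a9 stood at 24499 per kilobase, and in control 4 at 1113. In the Cre+ samples the mean per kilobase was 3502 for S100a9 and 691 for Mpo. Among the early genes the order Mpo, Prtn3, Elane, Ctsg was the same in every sample, while control 4 was the only sample in which S100a8 and S100a9 lay below Mpo per kilobase. As shares of all normalized counts, the 4 early genes together took 0.0101%, 0.00727%, 0.00970%, 0.00895% and 0.00730% in Cre+ samples 1 to 5 and 0.0251%, 0.0386%, 0.0466% and 0.0272% in controls 1 to 4. The 6 late genes took 0.0102% to 0.0630% in the Cre+ samples and 0.00583% to 0.163% in the controls.

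Other genes of the azurophil granule and its making were divided. Of 15 with a row in the table, 7 were lower and 4 higher (beside 21.6% lower and 21.5% higher of all genes tested), with a median log2 fold change of −0.23 beside 0.00497 over all genes tested. The higher ones numbered 2 after 75th percentile scaling or quantile normalization. Among those that fell were Ms4a3, a membrane protein of granulocyte-monocyte progenitors (log2 fold change −2.18, limma adjusted p = 4.36e-05), Nkg7, a granule membrane protein (−1.76, limma adjusted p = 0.000848), Prss57, a serine protease of the same granules (−1.76, limma adjusted p = 0.00870), Cst7, an inhibitor of cysteine proteases (−1.45, limma adjusted p = 0.00304), and Cd63 (−1.30, limma adjusted p = 1.26e-05). Nkg7 is also counted below among the B and NK lymphoid markers. Ms4a3 stood at 35.9 to 55.2 normalized counts in the Cre+ samples and at 152.5 to 312.4 in the controls. Lyz2, the lysozyme gene, which macrophages also use, fell by 1.11 on the log2 scale (limma adjusted p = 7.36e-05). Ctsc encodes the protease that activates elastase, proteinase 3 and cathepsin G and is abundant in macrophages. It rose by 0.43 (limma adjusted p = 0.00181) from 42043 to 48682 in the controls to 52754 to 69302 in the Cre+ samples. With date in the model, 5 of the 15 were lower (Ms4a3, Nkg7, Lyz2 and Cd63 among them) and 0 higher, beside 4.54% and 4.24% of all genes tested.

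Of 17 further genes of the specific and gelatinase granules with a row, 7 were lower and 2 higher (median log2 fold change −0.72), and 0 were lower and 1 higher with date in the model. Over all genes tested the shares were 21.6% lower and 21.5% higher, and 4.54% and 4.24% with date in the model. Mmp9, gelatinase B, fell by 1.46 (limma adjusted p = 0.00517), from 448.7 to 942.5 normalized counts in the controls to 139.9 to 504.2 in the Cre+ samples. Hp, the gene of haptoglobin, fell by 1.79 (limma adjusted p = 0.00410) and Clec5a, a receptor of myeloid cells, fell by 1.25 (limma adjusted p = 0.00158). With date in the model the limma adjusted p-values of these 3 genes were 0.618, 0.139 and 0.0769. Cybb, the large subunit of the phagocyte oxidase, which macrophages share, rose by 0.38 (limma adjusted p = 0.00335), and Adam8, a membrane protease, by 0.64 (limma adjusted p = 0.0240). Neither was called with date in the model (limma adjusted p = 0.380 and 0.169), and the 1 higher gene of that fit was Cnn2, an actin-binding calponin (limma adjusted p = 0.0414, and 0.105 without date). Cd177 and Mmp8, proteins of the neutrophil surface and of the specific granule, followed the late genes and were not called. Cd177 stood at 39.8 to 268.4 in the Cre+ samples and at 342.9, 87.1, 611.7 and 11.6 in controls 1 to 4.

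Genes of the neutrophil cytosol and surface that appear late in maturation were set beside the 6 late genes. Of 20 with a row, 19 were tested, and 1 was lower and 3 higher (Fpr2, a formyl peptide receptor, Il1b, the gene of interleukin 1 beta, and Trem3, a myeloid receptor), beside 21.6% lower and 21.5% higher of all genes tested, with a median log2 fold change of −0.90. Fpr2, Il1b and Trem3 had log2 fold changes of 1.00 (limma adjusted p = 4.47e-05), 0.83 (limma adjusted p = 0.00365) and 0.67 (limma adjusted p = 0.00918), and of the 3 Fpr2 was also called with date in the model. Control 4 was the lowest sample for 12 of the 20 (9.72% of all genes tested) and Cre+ sample 5 the highest Cre+ sample for 18 of the 20 (26.5% of all genes tested). Without control 4, 10 were called lower, as were 10 of the specific and gelatinase granule genes, where that fit called 19.6% of all genes lower. Stfa1, the most abundant gene of the list in the controls, stood at 291.3, 341.2, 677.2, 523.7 and 1609.4 in Cre+ samples 1 to 5 and at 3078, 1647, 4677 and 416.3 in controls 1 to 4.

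**Figure D4:**
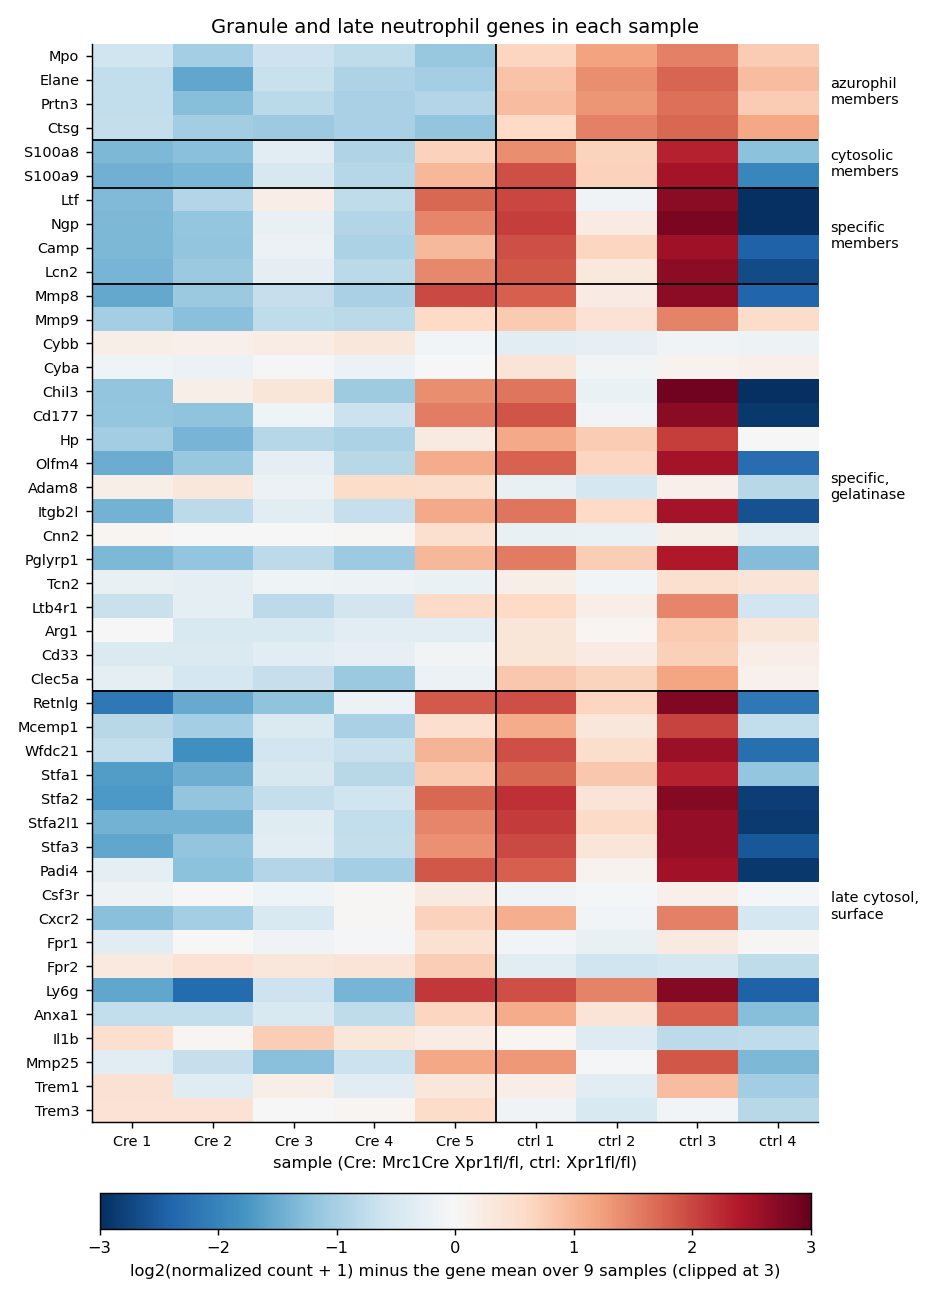
Log2(normalized count + 1) minus the mean of the gene over the 9 samples, for the 10 granule genes and the tested genes of the lists of specific and gelatinase granule genes and of late neutrophil genes that are reported here (rows) in each sample (columns), clipped at 3. The 4 azurophil genes change at the border between the genotypes, whereas most late rows are red in controls 1 and 3 and Cre+ sample 5 and blue in control 4 and Cre+ samples 1 and 2.

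Of 11 inhibitors of granule proteases or related enzymes that were tested, 3 were lower and 4 higher, where 21.6% of all genes tested were lower and 21.5% higher, so calls of this number are near the background, and 0 were lower and 1 higher with date in the model. Serpinb1a, an inhibitor of elastase, proteinase 3 and cathepsin G, fell by 1.68 (limma adjusted p = 0.00499), from 185.9 to 807.7 normalized counts in the controls to 81.6 to 234.7 in the Cre+ samples, which overlap. Serpinb10 and A2m, a broad protease inhibitor of plasma, were also lower (log2 fold changes −1.78 and −1.08). Serpina3g was higher by 2.29 (limma adjusted p = 2.6e-05), at 425.1 to 871.0 against 84.7 to 160.8, and it was the inhibitor that was called with date in the model. Slpi, the secretory leukocyte protease inhibitor, was higher by 1.01 (limma adjusted p = 0.0119), Serpinb1b by 1.21 (limma adjusted p = 0.0173) and Serpinb6b by 0.51 (limma adjusted p = 0.00179).

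Among 16 regulators of granulocyte formation, 6 were lower and 5 higher, and with date in the model 4 were lower and 1 higher. The shares over all genes tested were 21.6% lower and 21.5% higher, and 4.54% and 4.24% with date in the model. Gfi1, a repressor needed for neutrophil maturation, stood at 14.9 to 37.8 normalized counts in the Cre+ samples and at 54.2 to 146.0 in the controls (log2 fold change −1.81, limma adjusted p = 0.00129, and limma adjusted p = 0.0423 with date in the model). Cebpa, which directs progenitors to the granulocyte-monocyte fate, fell by 0.70 (limma adjusted p = 0.000379, and 0.00645 with date in the model). Cebpe, the factor of the specific granule stage, fell by 1.37 (limma adjusted p = 0.0320), from 136.4, 122.4, 235.6 and 45.9 in controls 1 to 4 to 34.6, 24.8, 45.0, 44.8 and 99.1 in Cre+ samples 1 to 5. Cebpe thus shared with the late genes a low control 4 and a high Cre+ sample 5, and with date in the model its limma adjusted p was 0.377. Gfi1b, the related factor of erythroid and megakaryocytic cells, fell by 1.98 (limma adjusted p = 5.47e-05). Spi1, which encodes PU.1 and is used by macrophages too, rose by 0.22 (limma adjusted p = 0.00710), and Runx1 by 0.38 (limma adjusted p = 0.000423), and of these 2 only Runx1 was called with date in the model.

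Of 16 receptors and partners of the granule proteins, 5 were lower and 6 higher, and with date in the model 1 was lower and 3 higher. Beside the same shares over all genes as for the regulators, these counts are a description of the list and not a result about it. Tlr4, a receptor reported for S100A8/S100A9, rose by 0.42 (limma adjusted p = 0.00281), and Ager, another, rose by 0.67 (limma adjusted p = 0.00642). Itgam and Itgb2, the subunits of the integrin that binds several granule proteins, rose by 0.42 and 0.34 (limma adjusted p = 0.00710 and 0.00686). Slc22a17, a receptor of lipocalin 2, fell by 0.87 (limma adjusted p = 0.00379), and F2r, the thrombin receptor, which neutrophil proteases can cleave, by 1.46 (limma adjusted p = 9.04e-05). Of these 6, Ager, Itgb2 and F2r were also called with date in the model. Among the most abundant genes of the lists of related genes, 6 more were called in neither fit, with log2 fold changes, without date, of −0.05 for Lamp1, 0.00407 for Fpr1, −0.18 for Serpinb6a, −0.02 for Cst3, 0.10 for Irf8 and −0.02 for Lrp1.

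**Figure D5:**
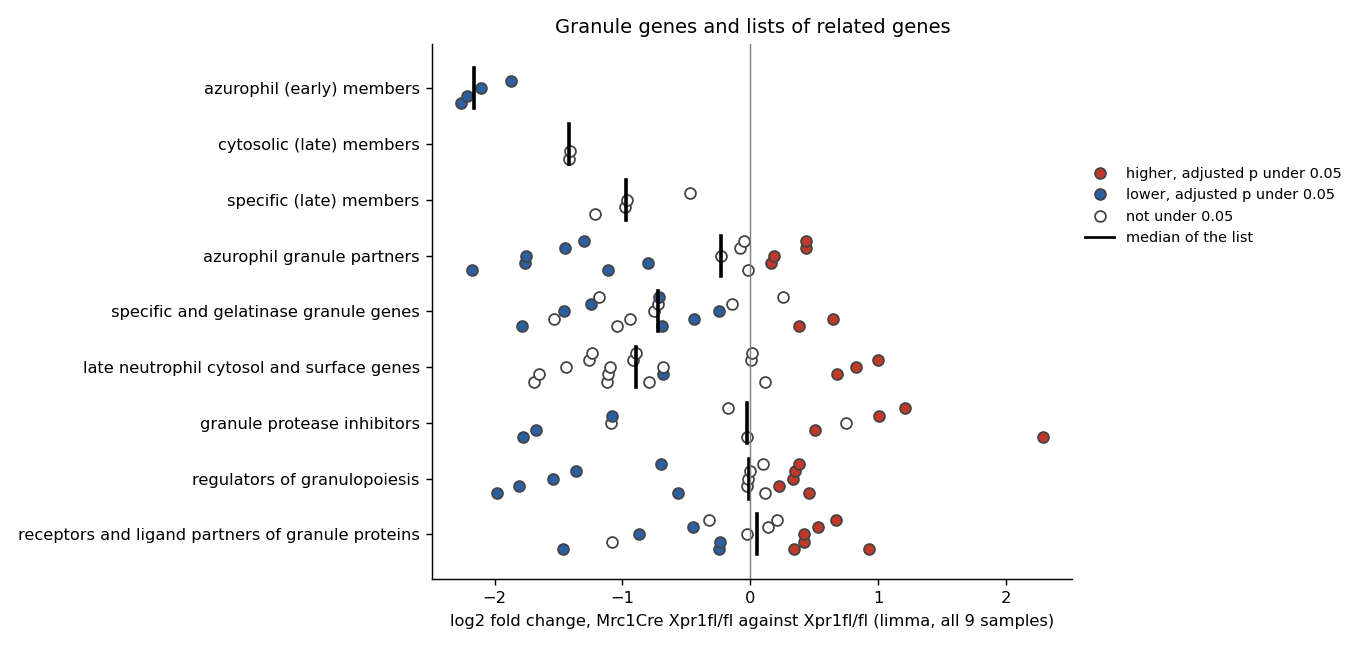
Log2 fold change, Cre+ against control, of each tested gene in the granule sets (first 3 lines) and in the 6 lists of related genes, with the median of each as a vertical line; blue is lower and red higher at an adjusted p under 0.05. The 4 azurophil genes lie between −2.26 and −1.87, all called lower, while every list of related genes holds calls in both directions.

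Values of markers of other cells stand here beside those of the granule genes. Of 11 markers of granulocyte-monocyte progenitors, 9 were lower and 1 higher (median log2 fold change −1.53), and 7 and 1 with date in the model. Of all genes tested, 21.6% were lower and 21.5% higher, and 4.54% and 4.24% with date in the model. Their sum was 6505, 6218, 6415, 6351 and 6427 normalized counts in Cre+ samples 1 to 5 and 9884, 9954, 11373 and 9283 in controls 1 to 4. Igfbp4 was the most abundant of those that fell (722.7 to 1052 against 2366 to 2858), Kit, the stem cell factor receptor, fell by 1.60 (limma adjusted p = 4.74e-05) and Flt3 fell by 1.68 (limma adjusted p = 0.000169), while Cd48, which macrophages share, rose by 0.44 (limma adjusted p = 0.000217). Ms4a3, Prss57 and Myb also stand in the lists above. No marker of this list was at 0 in any sample. The 9 markers called lower were picked by that call, so their low level in the Cre+ samples is part of the choice. Control 4 lay above every Cre+ sample for each of them, for Prss57 only just (41.09 against 40.95 in Cre+ sample 3). Cd34 was not called (limma adjusted p = 0.134). Its level in control 4 (487.9) lay below those in Cre+ samples 1, 2 and 4 (663.6, 655.7 and 525.9). Cd48 was higher in every Cre+ sample than in every control, and it is part of the sum. The part of the progenitor markers in the early result was not tested.

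Of 10 markers of mature neutrophils, which include S100a8 and S100a9, 1 was called lower (Mmp9) and 0 higher, beside 21.6% lower and 21.5% higher of all genes tested. The lower ones numbered 6 without control 4, where that fit called 19.6% of all genes lower, and 0 with date in the model. Their sum was 3278, 3539, 4906, 4302 and 11125 in Cre+ samples 1 to 5 and 16965, 8838, 26232 and 3413 in controls 1 to 4. S100a9 was the most abundant, so this sum is not a measure separate from the late genes. Ly6g, which defines mature neutrophils, stood at 2.57, 1.13, 5.90, 3.02 and 44.6 in the Cre+ samples and at 39.3, 28.8, 70.5 and 0.960 in the controls, so it was near 0 in the samples where the late genes were low. Csf3r, the receptor for granulocyte colony-stimulating factor, did not follow them and stood at 1495 to 1991 in the Cre+ samples and 1553 to 1840.1 in the controls. The sort took F4/80hi CD11blow cells, and the part of mature neutrophils in the late result was not tested.

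Marker RNA of other lineages differed between the genotypes too. All 13 erythroid markers with a row were lower (median log2 fold change −1.82). Their sum was 133626, 104313, 164472, 153295 and 315291 in Cre+ samples 1 to 5 and 562522, 411947, 652023 and 637130 in controls 1 to 4, with Hba-a1 the most abundant. Cre+ sample 5 was thus above the other Cre+ samples in erythroid as in late granule genes, whereas control 4 was among the highest in erythroid genes and lowest in late granule genes. Also lower were 7 of 13 eosinophil, basophil and mast cell markers, 9 of 9 hepatocyte, 7 of 9 endothelial, 5 of 8 megakaryocyte, 8 of 16 liver macrophage, 4 of 11 monocyte and 4 of 5 B and NK lymphoid markers, while 2 liver macrophage, 3 monocyte and 1 lymphoid marker were higher and 0 markers of the other 4 lists. With date in the model the lower ones numbered 4 of 13 erythroid, 4 eosinophil, basophil and mast cell, 2 hepatocyte, 2 endothelial, 1 megakaryocyte, 5 liver macrophage, 1 monocyte and 3 lymphoid, and the higher ones 1 liver macrophage, 0 monocyte and 0 lymphoid. Without control 4 the 2 liver macrophage markers and the lymphoid marker were no longer called higher. These counts stand beside 21.6% lower and 21.5% higher of all genes tested, and 4.54% lower and 4.24% higher with date in the model, so that 4 of 11 monocyte markers, for example, is a share near the background. Their part in the granule gene results was not tested.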

How the data were processed

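Gene expression was measured by paired-end bulk RNA-seq of stranded mRNA libraries from 5 Mrc1Cre Xpr1fl/fl and 4 Xpr1fl/fl samples. The authors checked reads with FastQC, quantified them with salmon on an index of GRCm39, imported them with tximport and normalized them with DESeq2 (versions are not given in the sources used here). The deposited unit is a signal, here gene counts divided by normalization factors, and 0 columns belonged to no mapped sample. Of the low values, 26.5% to 49.7% lay within 0.05 steps of a whole multiple of the best step found (10% for evenly spread values and 1 given step), too few to recover whole reads, so depth is unknown and a count test was not used.

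Members were found through GENCODE release M39, which gave symbols for 13698 of 13708 genes. Differences were fitted with limma 3.58.1 in R 4.3.3 (lmFit, then eBayes with its trend option) after log2(x + 1) of the normalized counts x, for genes that reached 10 in 4 or more samples, with Benjamini-Hochberg adjustment and a threshold of 0.05. This pseudocount understates changes of genes with low values. On simulated data the fit recovered 84 of 91 genes changed by 1 on the log2 scale and 109 of 109 changed by 2, and called 13 unchanged genes of 13412 tested. Single genes were also tested with two-sided exact permutation tests in scipy 1.17.1.

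The members, the lists and the tests were chosen with earlier results of these data known. Genes named were taken from the members, Xpr1, the 3 most abundant genes of each list, called genes with an absolute log2 fold change of at least 1, and the 5 genes most like each set with a mean of at least 50. Adam8, Cnn2, Cd177, Mmp8, Fpr2, Il1b, Trem3, Serpinb6b, Cebpa, Runx1, Tlr4, Ager, Itgam, Itgb2, Slc22a17, Cd34 and Ly6g were added to these with their values known. Not all genes of this rule are named, most of those in the marker lists being given as counts. Some called genes of the lists are counted but not otherwise reported here. Alternatives were pseudocounts of 0.5 and 10, no filter and a filter of 50, scaling to the 75th percentile, quantile normalization, eBayes without trend or robust, array weights, the replicate number or the date in the model, and each sample left out.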

Additional observations from a re-analysis of the deposited data

Results flagged for a closer look

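A check for a sample apart was made on normalized counts, not on the log2 scale of the fits, where a high sample lies less far apart. Chance gives about 1.1 of 22 groups for normally distributed values, which these counts need not be, so that number decides nothing here. In the 22 groups (the 10 granule genes and Xpr1 in each genotype), a sample stood apart from the rest of its group in 4. All 4 were Mrc1Cre Xpr1fl/fl sample 5, the only Cre+ sample of the earliest date, and all 4 were late genes: S100a9 at 4994.6 normalized counts, Ltf at 4038.7, Ngp at 4307.0 and Lcn2 at 1475.5. These genes correlate closely across the samples, so the 4 are not independent. The cause was not tested. S100a8 (2073.5) and Camp (765.0) were also highest in that sample, and no early gene was. Control 4, the lowest of its group for all 6 late genes, did not pass the same criterion in its group of 4.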

How the results depend on the processing

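All 4 early genes were called lower in each of the 20 alternatives, with limma adjusted p-values of 7.39e-06 to 0.00616 and log2 fold changes of −2.48 to −1.71. With date in the model 1194 genes were called instead of 5865 (617 lower and 577 higher). That fit has a single Cre+ sample beside the 3 controls of its date, and the granule genes called lower stayed at 4. Leaving out each sample in turn gave 4815 to 6081 genes and 4 to 9 granule genes called lower. The 9 came without control 4. The log2 fold change of Ltf was −1.75 to 0.34 over these fits and turned positive without control 1 (0.11), without control 3 (0.34) and with date in the model (0.19), in none of them past the threshold. The other 5 late genes kept a negative log2 fold change in every alternative. Scaling to the 75th percentile, which moved the median of all genes to −0.07, split the calls into 3707 lower and 1999 higher, against 2939 and 2926. Array weights, other pseudocounts, filters and eBayes settings moved no granule gene across the threshold. Of the lists of related genes, the late neutrophil genes called lower, 1 with all samples, numbered 0 to 10 when each sample was left out, and the azurophil partners called lower numbered 4 instead of 7 with the filter of 50.

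Same-numbered samples of the 2 genotypes correlated at −0.03 to 0.15, and 1 of the 4 Cre+ samples correlated best with its own number, so they share a number only. A fit with that number as a replicate block called 6226 genes (22.7% of all genes lower) and 6 granule genes lower, S100a8 (limma adjusted p = 0.0139) and S100a9 (0.0449) beside the early genes. The block leaves out Cre+ sample 5, which has no partner, so its fold changes equal those without that sample.

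The depth of the samples is unknown. With 4 controls, 1 of which differs up to 78.6 times from another in a late gene, the intervals of the specific granule genes hold both no change and a fall as large as that of the early genes.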
